A study of Homo sapiens with 10 samples.

Results

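Soluble guanylate cyclase, the cyclic GMP-dependent protein kinases and a set of cyclic nucleotide phosphodiesterases were examined in cyclophosphamide-resistant and sensitive cells of a chronic myeloid leukaemia (CML) line. The set held 10 genes: the cyclase subunits GUCY1A1, GUCY1B1 and GUCY1A2, the kinases PRKG1 and PRKG2, the phosphodiesterases PDE3B, PDE4A, PDE4B and PDE4D, and PDE4DIP, which encodes the anchoring protein myomegalin. They are 10 of 8226 genes measured by a probe set of their own. All probe sets that the platform annotation assigns to them were taken, 16 of the 12558 that are not controls. Of these, 13 carry 1 gene symbol and 3 are annotated to both PDE4DIP and its pseudogene PDE4DIPP2. The genes were chosen with the resistant against sensitive signals known. Their differences are therefore given as a description with no p-value. Whether limma's fit over all probe sets called a member is stated only as a label of its values, and it supports nothing.

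The samples were 5 arrays of a subline resistant to cyclophosphamide, an alkylating drug, and 5 arrays of the sensitive CML line, whose leukaemia type is driven by the BCR-ABL fusion kinase. The labels give neither the name of the line nor how resistance was raised, and state growth in tissue culture medium as the only treatment for both groups. Biotin-labelled cRNA made from total RNA was hybridised to 1-colour Affymetrix oligonucleotide arrays. The labels do not state separate cultures for the replicates. Errors and p-values therefore reflect only how far these arrays differ, and that spread may be technical.

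The values are MAS5 signals in arbitrary units on a linear scale, and levels of different probe sets are not comparable. A negative control limit was set on each array as the 95th percentile of 32 control probe sets with no human target. It lay between 319.7 and 739.8 in resistant arrays and between 360.8 and 640.0 in sensitive arrays. Signals at or below it are not above background, and where a whole group lies there a fold is given only as a bound ("at least"). Differences are means of log2(signal + 114.8) in resistant arrays less those in sensitive arrays, which understates the change of dim probe sets. Calls were made at a Benjamini-Hochberg adjusted p under 0.05 over all 12558 probe sets in limma. Of all probe sets, 7.41% were called, 4.42% higher and 2.99% lower in resistant arrays. The groups did not overlap in 8.5%, with resistant arrays higher in 4.94% and lower in 3.56%.

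Array quality was alike in the groups, with 51.0% to 61.3% of probe sets above the limit in resistant arrays and 52.7% to 59.1% in sensitive arrays. The GAPDH control gave 3'-to-5' signal ratios of 0.801 to 0.968 in resistant and 0.833 to 0.921 in sensitive arrays. Of 8 measured haematopoietic and myeloid markers, 5 exceeded the limit on 3 or more resistant arrays and 6 on 3 or more sensitive arrays. The leukocyte marker PTPRC was bright on all arrays, at 4328 to 7045 in resistant and 5324 to 7767 in sensitive cells, whereas KIT was never above the limit. Of 5 epithelial, 5 fibroblast and endothelial and 5 lymphoid markers measured, 1, 0 and 1 exceeded the limit on 3 or more resistant arrays and 2, 0 and 2 on 3 or more sensitive arrays. The summed epithelial signal was 3524 to 5965 in resistant and 3880 to 7635 in sensitive arrays and came mostly from KRT8. The summed fibroblast and endothelial signal was 601 to 1144 in resistant and 317 to 934 in sensitive arrays, and the summed lymphoid signal 1063 to 2112 in resistant and 1242 to 2096 in sensitive arrays. The erythroid factor GATA1 ran from 3009 to 4661 in resistant arrays, against 430.6, 510.5, 968.0, 3800.2 and 3650.3 in sensitive arrays, where it was uneven. No marker of the 4 lists was called by limma, although unadjusted p was under 0.05 for 2 that were higher (GATA1 and PECAM1) and 1 that was lower (SPI1) in resistant arrays.

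Soluble guanylate cyclase is a cytosolic enzyme that makes cyclic GMP (cGMP) when nitric oxide binds the haem held by its beta subunit. It works as a dimer of an alpha and a beta subunit, so GUCY1A1 or GUCY1A2 pairs with GUCY1B1. Cyclic GMP activates the protein kinases encoded by PRKG1 and PRKG2, and it blocks the breakdown of cyclic AMP (cAMP) by enzymes of the PDE3 family. PDE4 enzymes break down cAMP alone, and in blood cells PDE4B and PDE4D are known as regulators of leukocyte activation. In platelets the nitric oxide and cGMP pathway restrains aggregation.

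Both subunits of the common form of the cyclase were higher in resistant cells, while the second alpha subunit was not above background there. GUCY1B1, the beta subunit that binds haem, had signals of 1625.0, 1897.2, 1665.2, 2555.1 and 2487.7 in resistant arrays, against 251.0, 138.3, 68.5, 32.1 and 38.4 in sensitive arrays. All resistant arrays lay above their limit and all sensitive arrays below theirs, with no overlap. The mean was 2046 ± 447 in resistant and 106 ± 91.5 in sensitive arrays (SD, n = 5 each), which makes GUCY1B1 at least 4.14-fold higher in resistant cells. As in any bulk RNA sample, fewer cells with a transcript and less transcript per cell cannot be told apart.

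GUCY1A1, the alpha-1 subunit, had signals of 535.9, 794.8, 942.6, 405.0 and 623.1 in resistant arrays, against 19.5, 36.9, 364.3, 57.7 and 94.6 in sensitive arrays. The groups did not overlap, but only 3 resistant arrays and 0 sensitive arrays were above their limits, and sensitive replicate 3 was the highest of its group. The bound was accordingly low, at least 1.31-fold higher in resistant cells, and its log2 difference was 1.88 (SE 0.34). That bound takes resistant replicates 4 and 5 (405.0 and 623.1) as measured, although they lay below their limits (739.8 and 659.4). Leaving out 1 array at a time gave bounds of 1.18 to 1.46 for GUCY1A1 and 3.85 to 4.44 for GUCY1B1.

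GUCY1A2, the alpha-2 subunit, was measured by a pair of probe sets. In the first (32301_at) no array of either group was above the limit, with signals of 20.5 to 166.2 in resistant and 13.4 to 108.4 in sensitive arrays. In the other (32302_g_at) signals were 13.3 to 438.5 in resistant and 68.9 to 558.7 in sensitive arrays, 0 resistant arrays and 1 sensitive array were above the limit, and the groups overlapped. The log2 differences were 0.14 (SE 0.25) and -0.63 (SE 0.47), and neither was called.

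**Figure D1:**
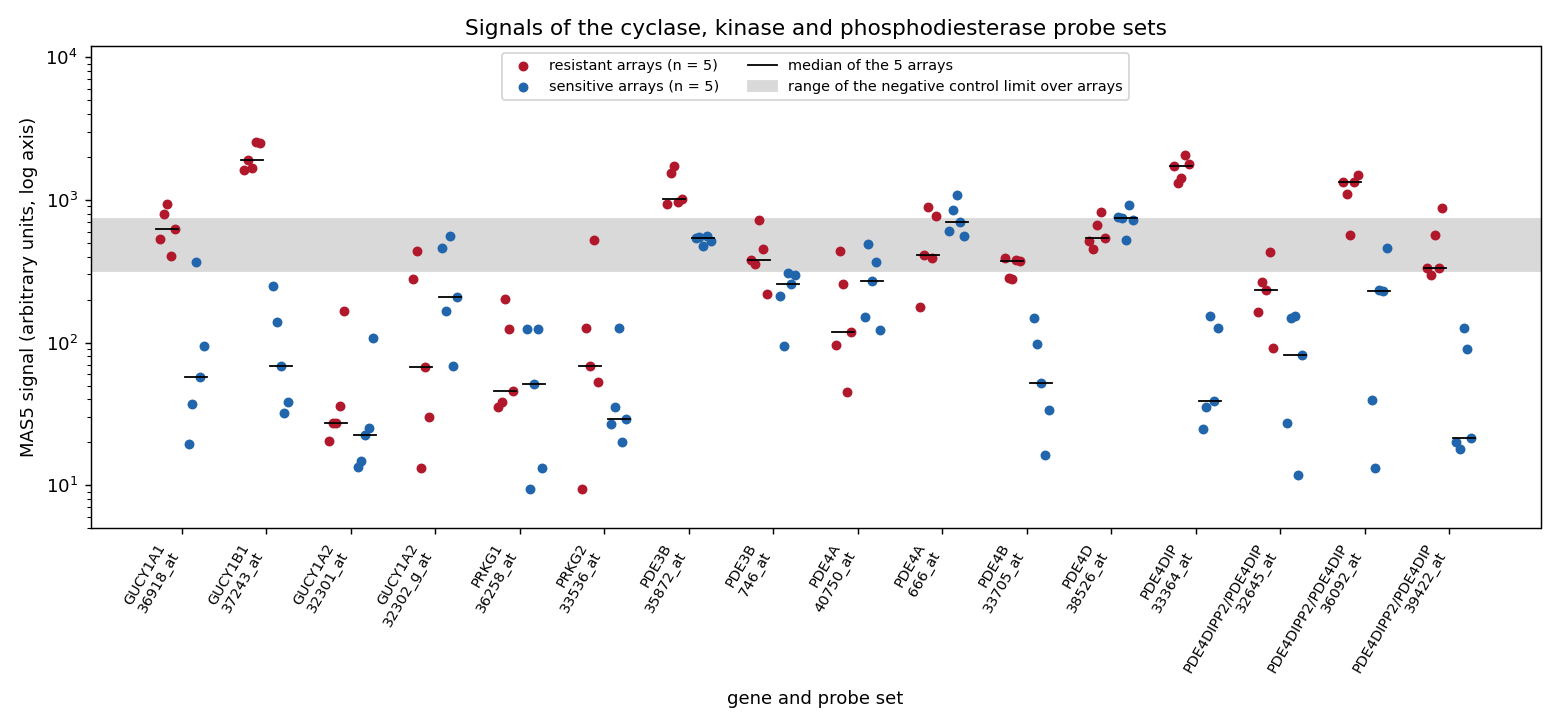
MAS5 signal (arbitrary units, log axis) of the 16 probe sets, with each array as a point, resistant arrays left of sensitive arrays, the median of the 5 arrays of a group as a black line and the range of the negative control limit (319.7 to 739.8) as a grey band. GUCY1B1 and PDE4DIP 33364_at lie above the band in all resistant arrays and below it in all sensitive arrays, whereas PRKG1 and GUCY1A2 32301_at lie below it in both groups.

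GUCY1A1 (chr4:155666848-155737059) and GUCY1B1 (chr4:155759021-155807811, both GRCh38.p14) follow each other on chromosome 4, 21961 bases apart with no protein-coding gene between them in the RefSeq gene table. Because the pair was higher together, the promoter windows of the outermost annotated start of each are shown, from 250 bases before to 50 bases after that start, 5' to 3' on the plus strand. The windows of PDE4DIP, also higher, and of PDE4A, which was not called, are set beside them. Sequences are those of RefSeq on GRCh38.p14, and capitals mark GC boxes (GGGCGG or CCGCCC) and cAMP response elements (TGACGTCA) or their short core (TGACG or CGTCA), read on both strands.
GUCY1A1, chr4:155666598-155666897: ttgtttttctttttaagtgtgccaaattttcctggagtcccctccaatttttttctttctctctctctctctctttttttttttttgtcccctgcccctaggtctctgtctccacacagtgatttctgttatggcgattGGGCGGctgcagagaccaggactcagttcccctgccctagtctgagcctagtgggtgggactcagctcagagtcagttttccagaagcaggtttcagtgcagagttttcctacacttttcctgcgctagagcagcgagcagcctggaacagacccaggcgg
GUCY1B1, chr4:155758771-155759070: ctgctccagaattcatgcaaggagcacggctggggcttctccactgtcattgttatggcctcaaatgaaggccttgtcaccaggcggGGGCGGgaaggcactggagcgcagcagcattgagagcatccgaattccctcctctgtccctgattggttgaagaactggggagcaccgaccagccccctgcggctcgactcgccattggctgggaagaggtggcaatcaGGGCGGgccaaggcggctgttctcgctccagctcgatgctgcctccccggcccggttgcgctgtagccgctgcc
PDE4DIP, chr1:148808184-148808483: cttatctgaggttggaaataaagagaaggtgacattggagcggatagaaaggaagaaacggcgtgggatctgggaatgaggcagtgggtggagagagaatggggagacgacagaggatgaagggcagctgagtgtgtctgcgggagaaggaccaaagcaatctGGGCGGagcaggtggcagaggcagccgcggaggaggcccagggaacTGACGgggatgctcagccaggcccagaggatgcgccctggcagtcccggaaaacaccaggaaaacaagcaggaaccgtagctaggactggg
PDE4A, chr19:10416523-10416822: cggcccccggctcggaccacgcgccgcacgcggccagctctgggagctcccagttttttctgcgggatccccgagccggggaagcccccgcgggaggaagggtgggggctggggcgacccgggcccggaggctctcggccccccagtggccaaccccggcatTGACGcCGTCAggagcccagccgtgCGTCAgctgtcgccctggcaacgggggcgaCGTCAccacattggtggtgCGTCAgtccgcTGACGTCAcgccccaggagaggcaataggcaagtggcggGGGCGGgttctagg

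Counted from the start, the GUCY1A1 window held 1 GC box that begins at -111, and the GUCY1B1 window held 2 that begin at -163 and -24. A GC box on either strand was present in 45% of all 35116 promoter windows of the table. The PDE4DIP window held 1 GC box at -87 and 1 short core at -41. Neither cyclase window held a cAMP response element or its short core. PDE4A differed in sequence, with 1 full element that begins at -3 and 7 short cores, 2 of which overlap inside the full element. The full element occurred in 1.85% and the short core in 24.6% of all windows. Over the 32 windows of the 9 genes with an entry, GC boxes were found in 12 windows of 7 genes, short cores in 4 windows of 3 genes and the full element in 1 window. PDE3B had no entry. The arrays do not show which start a cell uses, so these matches only describe the letters of the windows.

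The kinases that cGMP activates were not above background in either group, with 1 gene each measured by 1 probe set. PRKG1 encodes the soluble kinase of smooth muscle and platelets. It had signals of 35.4 to 202.2 in resistant and 9.4 to 125.2 in sensitive arrays, all at or below the limit and overlapping. PRKG2 encodes the membrane-bound kinase known from gut and bone. Its signals were 9.4, 126.4, 68.5, 520.9 and 52.9 in resistant arrays, against 26.8, 35.5, 125.9, 20.1 and 29.1 in sensitive arrays, all at or below the limit. The log2 differences were 0.18 (SE 0.28) for PRKG1 and 0.51 (SE 0.38) for PRKG2, and that of PRKG2 was 0.14 without resistant replicate 4. Neither was called, and at these signals a difference between the groups was not detectable.

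Of the phosphodiesterases, PDE3B by 1 of its probe sets and PDE4B were called higher, and PDE4A and PDE4D were not called. PDE3B, which breaks down cAMP and is inhibited by cGMP, had signals of 931.4, 1542.5, 1717.4, 970.2 and 1019.6 in resistant arrays, against 541.4, 549.9, 476.4, 554.8 and 512.8 in sensitive arrays (35872_at). The groups did not overlap, and the sensitive arrays lay within a narrow range. The mean was 1236 ± 366 in resistant and 527 ± 32.7 in sensitive arrays (SD, n = 5 each), a log2 difference of 1.03 (SE 0.20) or a fold of 2.05 on that scale. All resistant arrays and 4 sensitive arrays were above their limits. The other PDE3B probe set (746_at) was dimmer, at 218.0 to 725.1 in resistant and 95.3 to 306.8 in sensitive arrays, with 2 resistant and 0 sensitive arrays above the limit. Its groups overlapped, its log2 difference was 0.61 (SE 0.27), and it was not called.

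PDE4B, a cAMP phosphodiesterase of leukocytes, had signals of 391.8, 285.7, 280.9, 381.1 and 375.8 in resistant arrays, against 147.5, 97.2, 52.1, 16.4 and 33.5 in sensitive arrays. The groups did not overlap and the log2 difference was 1.35 (SE 0.22), but only 1 resistant array and 0 sensitive arrays were above their limits. The bound was under 1, so no fold is given.

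PDE4A and PDE4D, its relatives with the same substrate, had lower mean log2 values in resistant arrays and were not called. PDE4A (666_at) had signals of 176.8, 412.9, 894.6, 388.4 and 765.2 in resistant arrays, against 609.2, 844.3, 1075.8, 695.8 and 559.3 in sensitive arrays. The groups overlapped, with 2 resistant and 5 sensitive arrays above the limit, and the log2 difference was -0.54 (SE 0.32). The dimmer PDE4A probe set (40750_at) ran from 44.8 to 436.8 in resistant and from 122.6 to 489.2 in sensitive arrays, with a log2 difference of -0.43 (SE 0.36). PDE4D had signals of 515.5, 451.5, 666.4, 818.9 and 537.6 in resistant arrays, against 761.2, 745.2, 521.4, 922.2 and 722.5 in sensitive arrays. These overlapped, at a log2 difference of -0.26 (SE 0.20), with 3 resistant and 4 sensitive arrays above the limit.

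PDE4DIP encodes myomegalin, a large protein of the Golgi and centrosome that binds PDE4D. Its own probe set (33364_at) had signals of 1740.0, 1307.8, 1432.2, 2051.4 and 1774.6 in resistant arrays, against 24.7, 35.1, 153.6, 39.0 and 125.8 in sensitive arrays. All resistant arrays were above and all sensitive arrays below the limit. The mean was 1661 ± 295 in resistant and 75.6 ± 59.5 in sensitive arrays (SD, n = 5 each), at least 3.38-fold higher in resistant cells, and leaving out 1 array at a time gave bounds of 3.14 to 3.63.

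The 3 probe sets shared with the pseudogene PDE4DIPP2 cannot be assigned to either gene. Of these, 36092_at had signals of 1325.7, 1103.3, 566.8, 1342.3 and 1486.9 in resistant arrays, against 39.3, 13.2, 234.6, 231.0 and 463.7 in sensitive arrays. With 4 resistant and 0 sensitive arrays above the limit, it was at least 2.28-fold higher in resistant arrays. Probe set 39422_at ran from 299.9 to 879.7 in resistant and from 17.8 to 125.8 in sensitive arrays without overlap, with 2 resistant arrays above the limit. Probe set 32645_at was never above it, at 91.8 to 428.7 in resistant and 11.8 to 152.7 in sensitive arrays, and was not called. The log2 differences of all 3 were positive, at 2.20, 1.77 and 0.81.

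**Figure D2:**
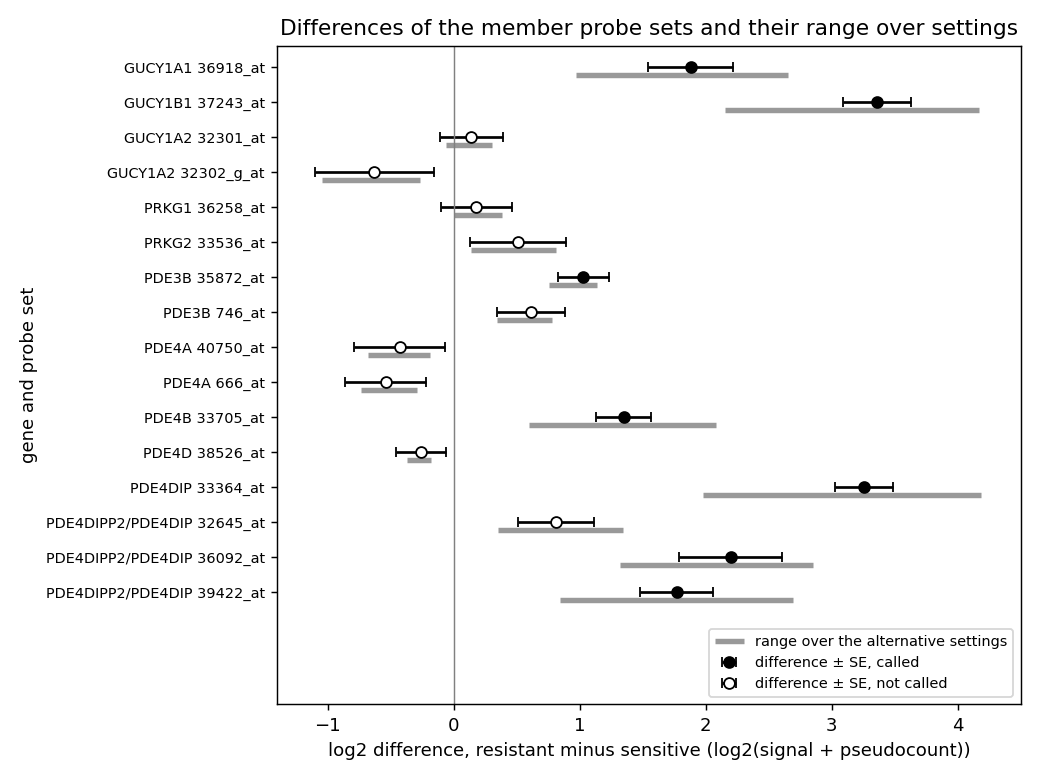
Difference of mean log2(signal + 114.8), resistant minus sensitive, for the 16 probe sets, with points for the main value, bars for its SE, filled points for calls and grey bars for the range over the alternative settings. GUCY1B1 (3.36) and PDE4DIP 33364_at (3.26) have the largest positive values, and both PDE4A probe sets, PDE4D and GUCY1A2 32302_g_at lie below 0.

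Of the 13 probe sets with 1 symbol, 5 were called higher (GUCY1A1, GUCY1B1, PDE3B 35872_at, PDE4B and PDE4DIP), beside 4.42% of all probe sets, and 0 were called lower, beside 2.99%. At an unadjusted p under 0.05 in limma the counts were 6 and 0, beside 10.2% and 7.69% of all probe sets. In the same 5 probe sets the groups did not overlap, which held with resistant arrays higher for 4.94% of all probe sets. The median log2 difference of the 13 was 0.51, against 0.03 over all probe sets. Only 6 of the 13 exceeded the limit on 3 or more arrays of one group, and 3 exceeded it on none. Since the genes were picked on this comparison, nothing is read from these counts.

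The profile of GUCY1B1 over the 10 arrays was compared with that of every other named gene by the root mean square distance between log2 values, each less its own mean. The closest were MAOA, a mitochondrial amine oxidase, at a distance of 0.25, CLIC2, an intracellular chloride channel protein, at 0.37 and RBPMS, an RNA-binding protein, at 0.42. MAOA had signals of 1319 to 2224 in resistant and 18.0 to 263.2 in sensitive arrays and, like GUCY1B1, lay below the limit in all sensitive arrays. GUCY1A2 32302_g_at, which had the most negative log2 difference, was closest to CASK, PKMYT1 and SERPINI2, at distances of 0.35, 0.45 and 0.45. GUCY1A2 32302_g_at and CASK were above the limit on only 1 sensitive array each and SERPINI2 on 0 arrays. PKMYT1 was above it on 2 arrays of each group. The matched profiles therefore lie mostly at background. These distances describe the 10 arrays and were not tested.

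The other genes of cyclic nucleotide signalling were taken from 8 lists that hold 108 genes, of which 85 were measured by a probe set with 1 symbol, and each was represented by its brightest probe set. In resistant cells 7 of the 85 rose and 0 fell (limma), beside 4.94% higher and 3.46% lower (8.4% in all) among 8226 genes. Without adjustment, 14 were higher and 2 lower at p under 0.05 (limma), beside 11% and 8.44% of all genes. The median log2 difference was 0.14, against 0.03 over all genes. Of the 85 genes, 49 exceeded the limit on 3 or more arrays of a group, beside 5296 of all 8226 genes. On no array was it exceeded by 26 of the 85, beside 1764 of all genes. For these 26 the missing call does not show equal levels. The 7 genes were NOS3, VASP, CAP2, PRKAR2B, PKIA, PKIG and AKAP12.

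NOS3, the endothelial nitric oxide synthase whose product activates soluble guanylate cyclase, had signals of 3320.0, 3103.4, 1975.5, 2729.9 and 2575.8 in resistant arrays, against 270.1, 157.1, 681.0, 42.1 and 48.7 in sensitive arrays (576_at). All resistant arrays and 1 sensitive array were above the limit, and the groups did not overlap (log2 difference 3.27, SE 0.40, adjusted p = 0.000225, limma). A further NOS3 probe set of a type that shares probes within gene families (1961_f_at) averaged 99.9 in resistant and 191 in sensitive arrays, with a log2 difference of -0.49 and no call (adjusted p = 0.437, limma). Of the endothelial markers, VWF was above the limit on no array of either group and PECAM1 on 1 resistant and 0 sensitive arrays. The other 10 measured genes of cGMP synthesis, among them NOS1, NOS2 and the membrane guanylate cyclases, were not called. Of the 11 genes of this list, 6 exceeded the limit on no array, among them the membrane cyclases GUCY2C, GUCY2D, GUCY2F and NPR1. An unchanged level cannot be read from these.

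VASP, an actin regulator phosphorylated by the cGMP- and cAMP-dependent kinases, was the 1 of 9 cGMP effectors that rose, beside 4.94% of all genes. Its signals were 3231.6, 1746.8, 2150.8, 1464.8 and 1491.3 in resistant arrays, against 732.8, 876.4, 288.7, 957.6 and 874.9 in sensitive arrays. The groups did not overlap (log2 difference 1.33, SE 0.31, adjusted p = 0.0189, limma), but with arrays scaled to a common median the log2 difference was 1.20 and the adjusted p 0.0639 (limma). Over all alternatives its adjusted p ran from 0.00358 to 0.0639 (limma).

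Of 11 genes of protein kinase A and EPAC, 3 rose, beside 4.94% of all genes, and whether the list differs from all genes was not tested. The 3 encode a regulatory subunit and 2 inhibitors of PKA. PRKAR2B, the type II beta regulatory subunit, had signals of 1242.6, 1977.9, 1180.1, 2234.6 and 2652.2 in resistant arrays, against 381.4, 163.8, 379.8, 304.9 and 469.1 in sensitive arrays (log2 difference 2.10, SE 0.27, adjusted p = 0.000396, limma). The inhibitor gene PKIG, at 615.1 to 1753.4 in resistant and 41.8 to 101.8 in sensitive arrays, was above the limit in all resistant and 0 sensitive arrays and at least 1.96-fold higher (adjusted p = 4.53e-05, limma). PKIA, the other inhibitor gene, was 1342 ± 231 in resistant and 348 ± 150 in sensitive arrays (SD, n = 5 each; log2 difference 1.69, adjusted p = 0.000463, limma), and both of its probe sets were called. In all 3 genes the groups did not overlap. PRKAR2B and PKIA (36202_at) were above the limit on all resistant arrays but on only 1 sensitive array each, so most of their sensitive signals are not above background.

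In the remaining lists, 1 of 14 A kinase anchoring genes rose, beside 4.94% of all genes. It was AKAP12, which anchors PKA at the cell membrane, at 612.1 to 1026.4 in resistant and 21.2 to 262.0 in sensitive arrays. With only 3 resistant and 0 sensitive arrays above the limit, it was at least 1.60-fold higher (adjusted p = 0.000363, limma). In the list of cAMP synthesis 1 of 14 genes rose, beside the same 4.94% of all genes. That gene was CAP2, named after a cyclase-associated protein of yeast and known in mammals for binding actin. It was 1225 ± 453 in resistant and 116 ± 99.3 in sensitive arrays (SD, n = 5 each) and at least 2.32-fold higher (adjusted p = 0.000687, limma), and 3 of its 4 probe sets were called. Above the limit were 4 resistant and 0 sensitive arrays. None of the adenylate cyclase or G protein genes of that list was called, and 3 of the 14 genes exceeded the limit on no array.

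None of 15 other phosphodiesterase genes was called by limma (unadjusted p under 0.05 in 2 that were higher and in 0 that were lower). Only 5 of the 15 exceeded the limit on 3 or more arrays of a group, and 7 exceeded it on none. PDE8A, a cAMP phosphodiesterase named because its probe set had the highest signal of the list, which does not rank its transcript level, was 3120 ± 304 in resistant and 3456 ± 433 in sensitive arrays (SD, n = 5 each; log2 difference -0.14, SE 0.17, adjusted p = 0.753, limma). PDE6D, named after its values were seen, had signals of 2337 to 3238 in resistant and 1575 to 2235 in sensitive arrays without overlap (log2 difference 0.50, SE 0.17, adjusted p = 0.126, limma). With dim probe sets left out its adjusted p was 0.0494 (limma). The 9 measured genes of the CREB family and its coactivators gave no call, and none had an unadjusted p under 0.05 (limma). Of these 9, 3 exceeded the limit on no array. CREB1, the cAMP-responsive transcription factor, was 4541 ± 2310 in resistant and 4114 ± 1300 in sensitive arrays (SD, n = 5 each; log2 difference 0.04, SE 0.37, adjusted p = 0.98, limma), and the sign of this difference turned with the scaling. Of the cyclic nucleotide exporters ABCC4 and ABCC5, 0 were called and 1 was higher at an unadjusted p under 0.05. That gene was ABCC5, named after its values were seen, with 2106 ± 280 in resistant and 1299 ± 413 in sensitive arrays (SD, n = 5 each; log2 difference 0.69, SE 0.22, adjusted p = 0.0868, limma). ABCC4 had a log2 difference of 0.49 (SE 0.32, adjusted p = 0.499, limma) by its brightest probe set. Its other probe set (1931_at) gave 0.06 (SE 0.21, adjusted p = 0.936, limma).

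**Figure D3:**
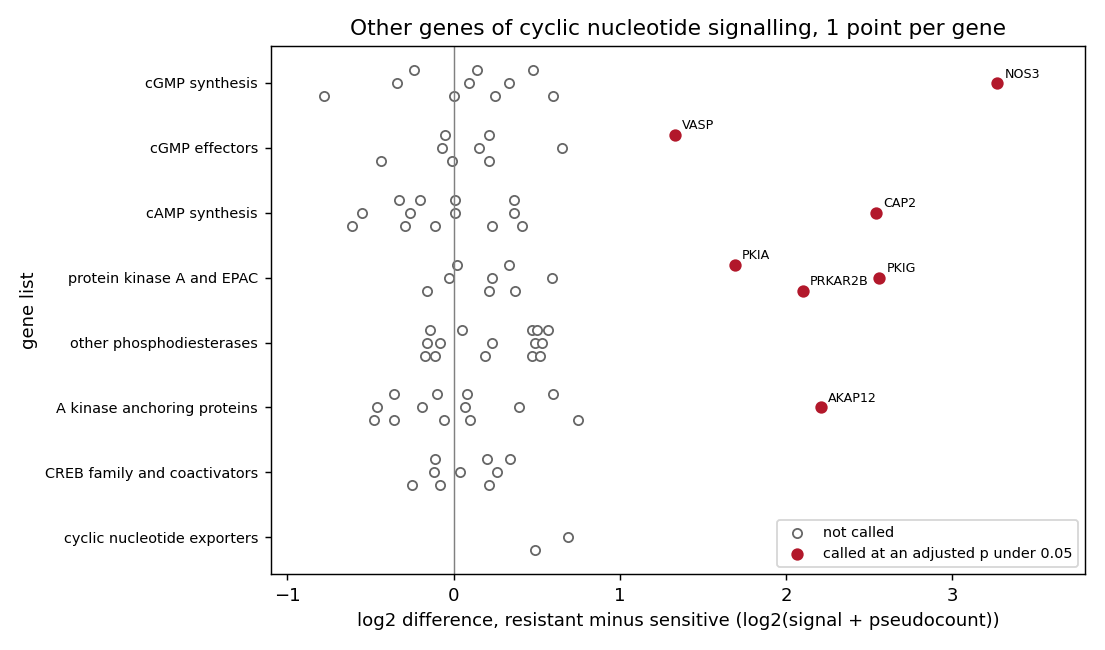
Difference of mean log2(signal + 114.8), resistant minus sensitive, for 85 other genes of cyclic nucleotide signalling in 8 lists, with 1 point per gene and filled points for calls at an adjusted p under 0.05. The 7 called genes lie between 1.33 (VASP) and 3.27 (NOS3), and no called gene lies below 0.

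The position of the cyclase pair on chromosome 4 was set against its neighbours, taking the 5 nearest measured genes on each side. Of these 10, GLRB, the glycine receptor beta subunit gene 3 measured genes beyond GUCY1B1, rose, at 6997 ± 1690 in resistant and 61.3 ± 35.4 in sensitive arrays (SD, n = 5 each; at least 14.1-fold, adjusted p = 5.84e-08, limma), and 0 fell. TDO2 and CTSO, which lie between GUCY1B1 and GLRB, were not called, with log2 differences of 0.79 and 0.86. On the other side the fibrinogen genes FGA, FGB and FGG, PLRG1 and NPY2R had log2 differences of -0.56 to 0.49 and were not called. FGB, FGG and NPY2R, and GRIA2 beyond GLRB, exceeded the limit on 0 arrays, so an unchanged level cannot be read from them. TDO2 exceeded it on 2 resistant and 0 sensitive arrays. The median over the 10 neighbours was 0.18.

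**Figure D4:**
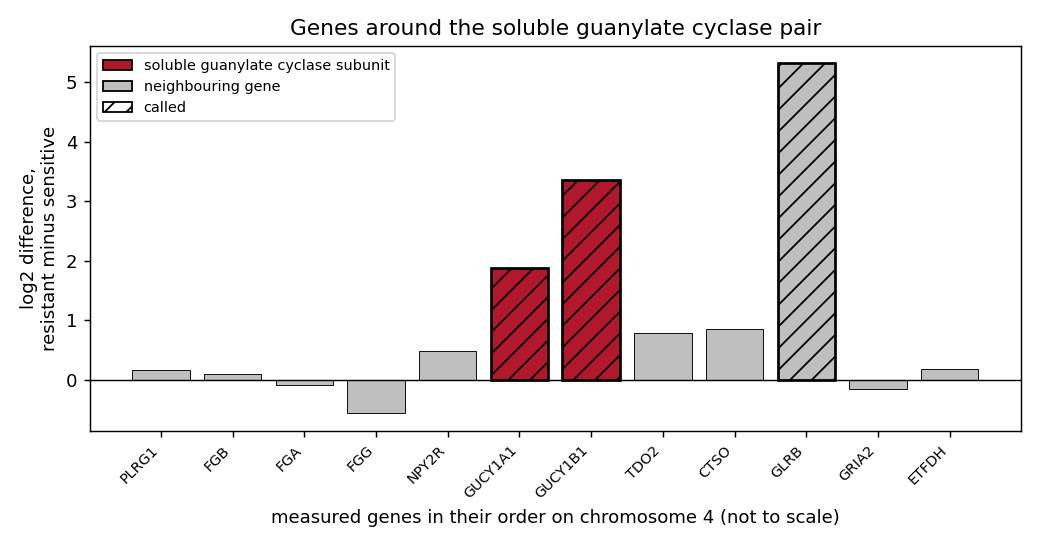
Difference of mean log2(signal + 114.8), resistant minus sensitive, for GUCY1A1, GUCY1B1 and the 5 nearest measured genes on each side in their order on chromosome 4, not to scale, with hatched bars for called genes. Bars of GUCY1A1 (1.88), GUCY1B1 (3.36) and GLRB (5.32) stand above those of the other neighbours, which lie between -0.56 and 0.86. FGB, FGG, NPY2R and GRIA2 were not above the negative control limit on any array.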

How the data were processed

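Gene expression was measured on 10 Affymetrix arrays, 5 of resistant and 5 of sensitive cells, grouped by their sample titles. The deposited values are signal intensities per probe set, and the submitters' processing notes name MAS5. Version, settings and image software: not given in the sources used here. Trimmed means (2%) were 2501.33 to 2501.51, so the authors' values were already at a common level. Of 12625 probe sets 67 controls were left out. Gene names came from the platform annotation and were updated by Entrez identifier to GRCh38.p14 RefSeq: 10943 had 1 symbol, 545 several and 1070 none.

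Arrays were scaled to a common trimmed mean and log2(signal + 114.8) was analysed, the pseudocount being the 20th percentile of all signals. Resistant minus sensitive differences were fitted with lmFit and eBayes in limma 3.58.1 (R 4.3.3) on group alone. Benjamini-Hochberg adjustment covered all 12558 probe sets. Simulated data with known changes served to test this model. For a bound, each array of the dim group was given its limit, or the probe set's signal where that was larger, and the mean of these log2 values was subtracted from that of the bright group. Signals of the bright group entered as measured, also those at or below their limit in GUCY1A1, 36092_at, AKAP12 and CAP2. In these the fold rests partly on signals not above background. The limit was chosen with the data known.

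The members, gene lists and marker lists were chosen with earlier results of these data known. Of the lists, every called gene is named, or else the brightest gene. Neighbours and promoter windows were chosen after the values were seen. Alternatives were other scalings, pseudocounts, a filter on dim probe sets, a trended and robust variance prior, a replicate block and leaving out each array. The number of arrays limits precision.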

Additional observations from a re-analysis of the deposited data

Results flagged for a closer look

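Among 32 groups of 5 arrays (16 probe sets in both lines), 3 held an array far from the other 4 by Dixon's ratio, where chance alone marks about 1 in 20. They were in GUCY1A2 32301_at and PRKG2, at signals not above background. In GUCY1A2 32301_at, resistant replicate 5 had a signal of 166.2 and sensitive replicate 5 one of 108.4, each the highest of its group. In PRKG2, sensitive replicate 3 had 125.9.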

How the results depend on the processing

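Of the 13 single-symbol probe sets 5 were called higher and of the 3 shared ones 2, beside 4.42% of all probe sets. These calls were made, with the same sign, under every alternative in which the probe set was fitted. The genes were picked on this comparison and the alternatives reuse the same arrays, so this supports nothing about them. The filter on dim probe sets left out PDE4B and 39422_at, although the count stayed within 1.5 times. No uncalled probe set of the 16 was called under any alternative. The values themselves moved with the pseudocount: GUCY1B1 was 4.17 with the smaller one tried and 2.15 with 4 times the main one, GUCY1A1 2.65 and 0.97, and PDE4B 2.08 and 0.60. Over all probe sets, 428 to 537 were called higher and 263 to 345 lower without 1 array. Scaling to a common median moved the median difference of all probe sets to -0.071, against 0.029, and gave 438 higher and 423 lower calls.

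Of the other pathway genes, 11 were called higher and 1 lower (EZR, -0.46) with the filter on dim probe sets, where fewer were tested. The gained higher calls were PRKX, PDE6D, AKAP11 and ABCC5. AKAP11 and ABCC5 were also called with 4 times the pseudocount, with the trended and robust prior and without sensitive replicate 3. EZR was also the 1 lower call with a pseudocount 4 times the main one and with the trended and robust prior. Without 1 array, 7 to 9 were called higher and 0 lower. CREB1 had -0.09 after median scaling and -0.20 to 0.34 without 1 array.

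The labels do not say whether equal replicate numbers pair the arrays. Deviations from the group means correlated at 0.009 to 0.123 between arrays of equal number and at -0.092 to 0.138 between arrays of unlike number. Resistant replicate 1 correlated better with sensitive replicate 2 (0.138) than with sensitive replicate 1 (0.038). Correlations this weak cannot show whether the arrays were paired, so the block stays an alternative. With the replicate block, 491 probe sets were called higher and 303 lower, 5 members were called higher and 0 lower, and of the named pathway genes VASP was not called (adjusted p = 0.0593, limma).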

Other observations

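Neighbours of the other members were read in the same way, as the 5 nearest measured genes on each side. No limit was set on their distance, and unmeasured genes may lie between. Beside PDE3B on chromosome 11, RRAS2, a Ras-related GTPase, rose at least 7.79-fold (adjusted p = 4.68e-07, limma), and the clock gene BMAL1 rose at least 2.04-fold (adjusted p = 3.62e-05, limma). Beside PDE4B on chromosome 1, the G protein subunit gene GNG12 rose at least 6.21-fold (adjusted p = 1.49e-05, limma) and the kinase gene JAK1 had a log2 difference of 1.01 (adjusted p = 0.0103, limma). Beside PDE4A on chromosome 19, ICAM3, an adhesion molecule of leukocytes, was 134 ± 163 in resistant and 4468 ± 541 in sensitive arrays (SD, n = 5 each), at least 8.38-fold lower (adjusted p = 3.24e-06, limma). Beside GUCY1A2 on chromosome 11, the inflammatory protease gene CASP1 was at least 2.04-fold lower (adjusted p = 0.000107, limma).

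Each of the 10 members had 10 measured neighbours, and between 0 and 2 of them were called higher and 0 or 1 lower, beside 4.94% and 3.46% of all genes. Beside PDE4DIP, SV2A rose (log2 difference 0.87, adjusted p = 0.00888, limma). CSTF2T rose beside PRKG1 (log2 difference 2.26, adjusted p = 0.00146, limma) and IL6ST beside PDE4D (log2 difference 1.83, adjusted p = 0.0122, limma), and beside PRKG2 none was called by limma.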
